A study of Homo sapiens with 3 samples.

Results

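The genes described are 8 members of the LY6/uPAR family measured in HaCaT cells, an immortalised line of human keratinocytes: LYPD2, LYPD3, LYPD5, LY6D, LY6E, LY6K, PSCA and PLAUR. They were found by gene symbol among the 58735 Ensembl identifiers of the deposited count table, and all 8 were present. They were selected on measured values, the low count of LYPD2 after exposure to S1650b, so the values of S1650b against control are a description and support nothing further. RNA was sequenced from 3 cultures, all labelled WT: cells given S1650b, a particulate sample, at 50 µg/mL, cells given carbon black (CB) at 25 µg/mL, and control cells exposed to none. Exposure lasted 24 h in medium free of fetal bovine serum. The doses of the 2 particles differ, and each group holds 1 library, so no difference below has a replicate check and no test across samples was possible.

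Proteins of this family carry a compact domain of finger-like loops held together by disulfide bonds, and most of them are tied to the outer cell surface by a glycosylphosphatidylinositol (GPI) anchor. In stratified epithelia several members appear as cells leave the basal layer, and some bind matrix, proteases or receptors. PLAUR, the urokinase receptor, is the best known: it holds the protease urokinase (PLAU) at the cell surface, where plasminogen is activated. LY6E is induced by interferon and limits the entry of some viruses.

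On GRCh38, LYPD3 (chromosome 19, 43460787 to 43465660), PLAUR (43646095 to 43670547) and LYPD5 (43795929 to 43827206) follow each other, all on the minus strand. Promoter windows from RefSeq (GRCh38.p14, 250 bases before to 50 after the gene start, minus strand, 5′ to 3′) were at hand for 3 of the 8 members, these genes. All windows at hand are shown. Of these neighbours, LYPD3 and LYPD5 had fewer counts with both particles than in control, and PLAUR had more. A link between the letters of the windows and these directions was not tested. The windows are chr19:43465559-43465858 for LYPD3, chr19:43802398-43802697 for LYPD5 and chr19:43670120-43670419 for PLAUR; that of LYPD5 lies at RefSeq's start, inside the longer GENCODE gene. Capitals mark every match to the motifs TGANTCA (AP-1), GCGTG (the core bound by AHR with ARNT), AACCNGTT (Grainyhead) and the interferon-stimulated response element, on either strand.
LYPD3: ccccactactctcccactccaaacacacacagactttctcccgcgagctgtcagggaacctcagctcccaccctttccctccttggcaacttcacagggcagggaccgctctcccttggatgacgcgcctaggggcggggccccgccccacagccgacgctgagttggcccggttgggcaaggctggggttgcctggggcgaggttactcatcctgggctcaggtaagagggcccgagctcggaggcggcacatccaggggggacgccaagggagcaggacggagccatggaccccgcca
LYPD5: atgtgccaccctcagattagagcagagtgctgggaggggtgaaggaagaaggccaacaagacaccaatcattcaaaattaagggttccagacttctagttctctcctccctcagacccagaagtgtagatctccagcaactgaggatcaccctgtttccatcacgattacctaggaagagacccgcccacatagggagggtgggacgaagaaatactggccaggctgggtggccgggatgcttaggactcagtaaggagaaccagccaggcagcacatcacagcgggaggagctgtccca
PLAUR: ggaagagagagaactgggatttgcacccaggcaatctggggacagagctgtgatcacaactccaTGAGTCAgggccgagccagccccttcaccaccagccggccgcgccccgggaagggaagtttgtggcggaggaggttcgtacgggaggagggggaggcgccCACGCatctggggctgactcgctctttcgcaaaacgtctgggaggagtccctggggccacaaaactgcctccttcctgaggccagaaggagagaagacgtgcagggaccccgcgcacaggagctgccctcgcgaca
The PLAUR window held 1 AP-1 match, TGAGTCA, which begins 186 bases before the gene start, and 1 match to the AHR core, on the opposite strand, 86 bases before it. The LYPD3 and LYPD5 windows held 0 matches to any of the 4 motifs. Of all 35116 promoter windows in the table, 7.71% held the AP-1 letters, 36.5% the AHR core, 1.73% the Grainyhead letters and 3.57% the interferon element. A match is a description of letters only, and its absence says only that the letters are not in these windows.

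The libraries hold 20417744 (S1650b), 20946139 (CB) and 20658247 (control) gene counts. Counts were scaled to library size, adjusted for composition with TMM factors, and are given as CPM. All 8 members were among the 14709 tested genes, those that reached 1 CPM before TMM adjustment in 1 library or more. A fold is the ratio of scaled CPM, with a 95% interval for counting error only. PCR reads without molecular identifiers are not independent molecules, and the interval leaves out variation between cultures. A gene is called lower or higher where its fold is at least 2 and the interval lies on that side of 1. Each of the 8 keratinocyte markers was detected in all 3 libraries, and of them 2 were called lower in S1650b than in control, KRT5 (3.15-fold) and KRT14 (2.91-fold), and 0 higher, with a median log2 fold of 0.09. KRT17, DSP, CDH1 and TP63 had folds of 1.34, 1.79, 1.30 and 1.24, under the rule. SFN and PERP lay below control without a call. SFN had 1185 scaled CPM in S1650b and 1600 in control, and PERP 367 and 401. Of all tested genes, 7.86% were called lower in S1650b than in control and 12.1% higher. Without TMM factors, the 8 keratinocyte markers summed to 7565 CPM in S1650b, 12530 in CB and 13639 in control. Melanocyte markers summed to 10.5, 8.02 and 9.63 CPM in the same order, endothelial markers to 52.6, 31.2 and 55.6, and immune markers to 1.27, 1.19 and 1.84. In the S1650b library the fold also followed base content: the median log2 fold against control was 0.60 in the eighth of genes with the lowest GC content and -0.43 in the eighth with the highest. In the CB library the same medians were 0.05 and -0.08. LYPD2, LY6D, LY6E and PSCA belong to the eighth with the highest GC content, so folds of S1650b against control are also given with the trends with length and GC removed.

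LYPD2 (ENSG00000197353) encodes a small GPI-anchored protein about which little is known. It had 4 counts in the S1650b library, 41 in CB and 232 in control. Per length, that is 0.299, 3.58 and 19.7 FPKM (fragments scaled to exon length and library size). The 95% Poisson intervals of its scaled level did not overlap between any of the 3 libraries, at 0.0488 to 0.458 CPM in S1650b, 1.46 to 2.77 in CB and 10.3 to 13.4 in control. LYPD2 was 65.9-fold lower in S1650b than in control (25.4 to 244), rank 3 from the lowest of all 14709 tested genes, and 48.1-fold lower with the length and GC trends removed. As it had 4 counts in S1650b, the size depends on the counts added before the ratio: with 5 added it was 28.8-fold. In CB it was 5.78-fold lower than in control (4.13 to 8.27), rank 82 from the lowest. Between the particles, S1650b was 11.4-fold below CB (4.13 to 43.8), or 5.49-fold with 5 counts added. By deposited FPKM, LYPD2 came 8 of 8 among the members in S1650b, 4 of 8 in CB and 2 of 8 in control.

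**Figure D1:**
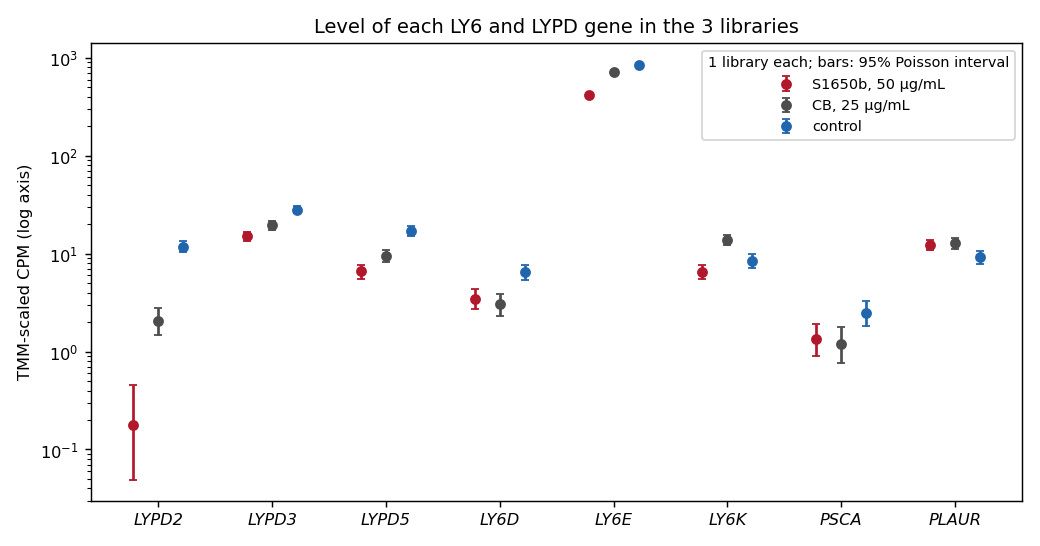
Scaled level of each member in CPM (log axis) in the S1650b, CB and control libraries, 1 library each, with 95% Poisson intervals for counting error. LYPD2 spans 0.179 CPM in S1650b, 2.04 in CB and 11.8 in control, while LY6E stays at or above 413 CPM in each library.

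The genes whose pattern over the 3 libraries was most like that of LYPD2 were found by the Euclidean distance between the log2 folds of S1650b and of CB, each against control. The nearest was DCN, which encodes the matrix proteoglycan decorin, at a distance of 1.04, with 41 counts in S1650b, 153 in CB and 1067 in control. BGN, which encodes biglycan, a related proteoglycan, had 1, 4 and 56 counts in the same order. DEFB1, an antimicrobial defensin, had 1, 9 and 35 counts. MGAT3, a glycosyltransferase, had 1, 3 and 40 counts, and DAPL1, which is expressed in epithelia, had 1, 3 and 30. Apart from DCN, these genes had 1 count in S1650b, so their place in the order rests on few reads.

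DCN is also a marker of fibroblasts. The 7 listed fibroblast markers summed, without TMM factors, to 14.2 CPM in S1650b, 29.2 in CB and 88.8 in control. COL3A1, the other one called lower in S1650b, had 83 counts in S1650b, 339 in CB and 638 in control. Of the others, COL1A2, PDGFRA and PDGFRB had 0 counts in control and at most 5 in either particle library, LUM had 6 counts in S1650b, 3 in CB and 9 in control, and COL1A1 had 156, 106 and 120. The part of this in the level of LYPD2 was not tested. In bulk RNA, fewer cells of a type and less RNA per cell cannot be told apart.

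LYPD3 (ENSG00000124466), also called C4.4A, is a surface protein of suprabasal keratinocytes that binds laminin and the secreted proteins AGR2 and AGR3. It had 337 counts in S1650b, 390 in CB and 554 in control, in that order from the lowest. It was 1.87-fold lower in S1650b than in control (1.63 to 2.14), under the 2-fold rule, and 1.32-fold lower with the trends removed. In CB it was 1.45-fold lower than in control (1.27 to 1.66). Between the particles the fold of S1650b over CB was 0.778 (0.670 to 0.902), but 1.07 with the length and GC trends removed, so its side of 1 turned. LYPD3 was the second member by FPKM in both particle libraries.

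LYPD5 (ENSG00000159871), another GPI-anchored member of little known function, had 147 counts in S1650b, 191 in CB and 335 in control. It was 2.59-fold lower in S1650b than in control (2.13 to 3.16) and 2.37-fold lower with the trends removed. In CB it was 1.79-fold lower than in control (1.496 to 2.15), under the rule. Both particle libraries lay below control, and S1650b lay below CB (fold 0.693 of S1650b over CB). LYPD5 and LYPD2 were the members that stayed past the 2-fold rule in S1650b with both trends removed.

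LY6D (ENSG00000167656) is a surface antigen of stratified epithelia. It had 77 counts in S1650b, 61 in CB and 128 in control, so both particle libraries lay below control and, as counted, close to each other. It was 1.89-fold lower in S1650b than in control (1.41 to 2.54) and 1.32-fold lower with the trends removed. In CB it was 2.14-fold lower than in control (1.57 to 2.96), a call that is lost at 1.97-fold with both trends removed. Between the particles LY6D had a fold of S1650b over CB of 1.14 (0.801 to 1.62), but 1.57 with both trends removed. Exons of the antisense gene AC083841.2 overlap 13.9% of its exonic length.

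PSCA (ENSG00000167653), prostate stem cell antigen, is a GPI-anchored protein of prostate and other epithelia, and was the least abundant member by FPKM in the CB and control libraries. It had 30 counts in S1650b, 24 in CB and 49 in control. Its Poisson interval in S1650b (0.906 to 1.92 CPM) overlapped that in control (1.84 to 3.29 CPM). It was 1.85-fold lower in S1650b than in control (1.15 to 3.03) and 2.09-fold lower in CB than in control (1.26 to 3.56). With both trends removed these were 1.30-fold and 1.93-fold, and the CB call is lost. Exons of JRK overlap 20.9% of PSCA.

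LY6E (ENSG00000160932) made up 90.1% of all member counts in S1650b, 92.0% in CB and 91.0% in control. It had 9229 counts in S1650b, 14323 in CB and 16694 in control, or 155, 282 and 319 FPKM. By FPKM it lay at percentile 98.7 in S1650b, 99.0 in CB and 99.1 in control among the tested genes. LY6E was 2.05-fold lower in S1650b than in control (2.002 to 2.11). That value lies at the edge of the 2-fold rule, and with both trends removed it was 1.46-fold lower and no longer called; scaling by total counts gave 1.79-fold. In CB it was 1.19-fold lower than in control (1.16 to 1.22). As LY6E is induced by interferon, a list of interferon response genes was set beside it. Of 22 tested list members, 13 were lower and 0 higher in S1650b than in control, with a median log2 fold of -1.06 against -0.04 over all tested genes (-0.94 and -0.10 with the trends removed). The lowest included OASL (4.98-fold lower), IFITM1 (3.92-fold) and OAS3 (3.47-fold), all antiviral proteins. Exons of the related gene IFITM2 overlap 32.5% of IFITM1. In CB, 3 of the 22 were lower and 0 higher, with a median of -0.51 against -0.01 over all tested genes. The shares of all tested genes were 7.86% lower and 12.1% higher in S1650b, and 5.6% and 1.69% in CB.

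LY6K (ENSG00000160886) is a cancer and testis antigen that in mouse sperm works with TEX101. It had 145 counts in S1650b, 280 in CB and 166 in control, highest in CB and lowest in S1650b. It was 1.65-fold higher in CB than in control (1.36 to 2.01), under the rule. In S1650b it was 1.30-fold lower than in control (1.03 to 1.64), and 1.14-fold lower with the trends removed. Between the particles, S1650b was 2.15-fold below CB (1.75 to 2.64), a call that is lost at 1.82-fold with the trends removed. Exons of the antisense gene LNCOC1 overlap 71.0% of LY6K, and the labels and headers do not state a strand setting for the counting, so reads of the pair may be mixed. LNCOC1 itself had 15 counts in S1650b, 26 in CB and 32 in control, and so had its highest count in control rather than CB. TEX101 had 0 counts in each library.

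PLAUR (ENSG00000011422) was the one member with more counts in both particle libraries than in control: 274 in S1650b, 257 in CB and 180 in control. It was 1.34-fold higher in S1650b than in control (1.11 to 1.63), or 1.57-fold with the trends removed, and 1.40-fold higher in CB than in control (lower bound 1.15). All these folds lie under the 2-fold rule. The particle libraries lay within counting error of each other (fold of S1650b over CB 0.959, 0.806 to 1.14), and 5 alternatives put that fold above 1. Its promoter is the printed window that holds the AP-1 letters, and a part of these letters in its level was not tested.

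**Figure D2:**
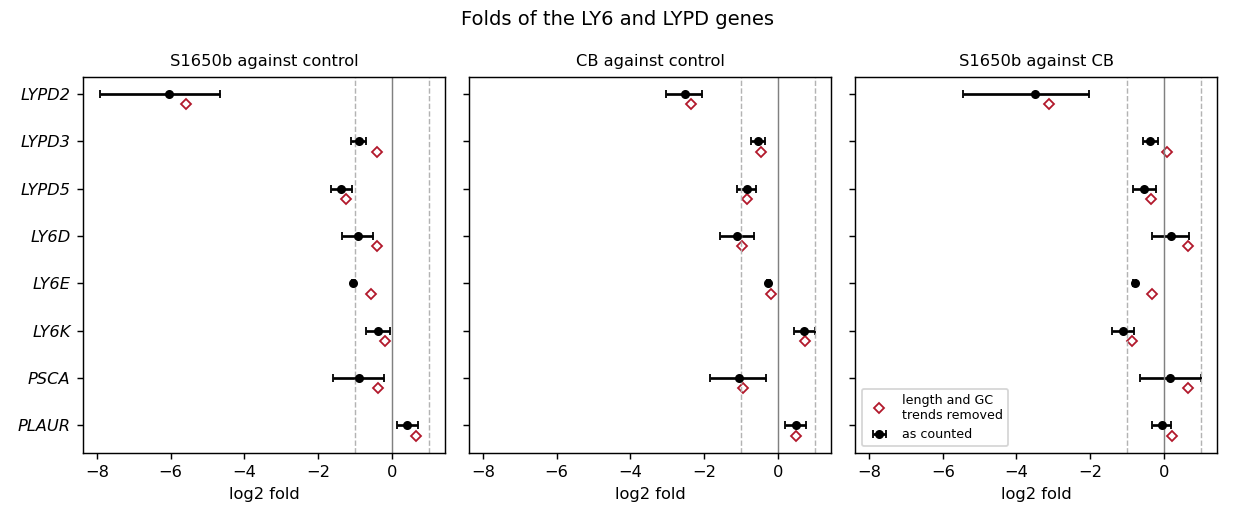
Ratio of scaled CPM (log2 axis) of each member in S1650b against control, CB against control and S1650b against CB; black points are folds as counted with 95% counting intervals, open diamonds the folds with length and GC trends removed, and dashed lines a fold of 2. LYPD2 is the lowest member in each panel, and the diamonds of LYPD3, LY6D, LY6E and PSCA move toward a ratio of 1 in S1650b against control.

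In S1650b against control, 3 of the 8 members (LYPD2, LYPD5 and LY6E) were called lower, where 7.86% of all tested genes were, and 0 were called higher, where 12.1% of all tested genes were. As this contrast chose the members, nothing is read from that count. In CB against control, 3 of 8 (LYPD2, LY6D and PSCA) were called lower against a background of 5.6%, and 0 higher against 1.69%. That comparison uses the same control library as the choice of members, and with both trends removed 1 of 8 was called lower. In S1650b against CB, 2 of 8 (LYPD2 and LY6K) were called lower against 9.46%, and 0 higher against 16.1%. That comparison uses the S1650b library on which LYPD2 was picked, and with both trends removed the LY6K call is lost, which leaves 1 of 8. The median log2 fold of the members was -0.91 in S1650b and -0.69 in CB against control, and -0.40 and -0.64 with the trends removed. Scaling moved the background in S1650b against control: 60.7% of the called genes were higher with TMM, 75.8% with total counts, and 46.6% and 43.6% with the GC trend or both trends removed. In S1650b against CB the share was 63.0% with TMM and 77.0% with total counts.

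**Figure D3:**
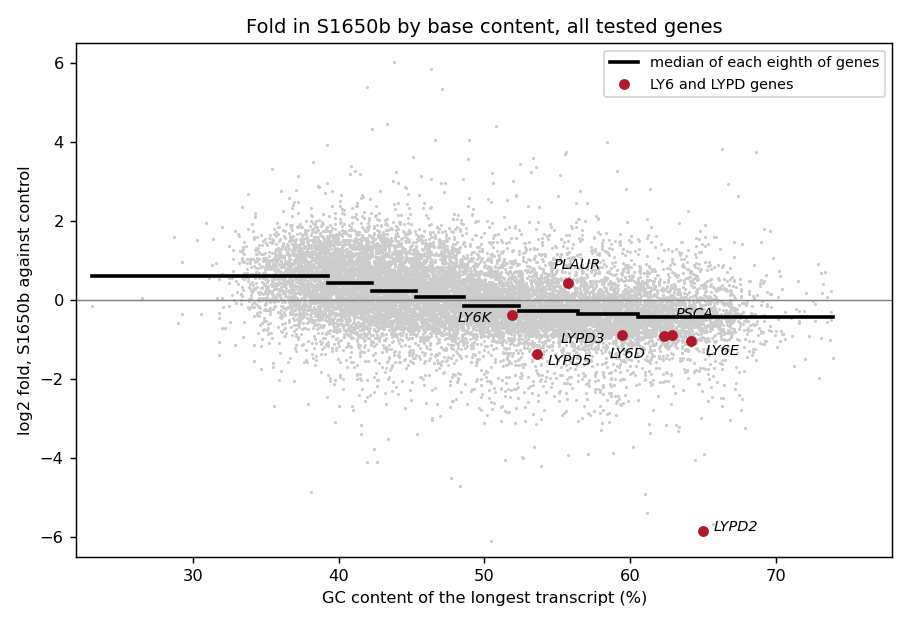
The log2 fold of S1650b against control (0.5 counts added) by the GC content of each gene's longest transcript in percent, for all tested genes (grey), the median of each eighth of genes (black) and the members (red). The medians go from 0.60 at the lowest GC content to -0.43 at the highest, and LYPD2 at 65.0% GC lies at -5.86.

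Of 26 other genes of the family, 8 were tested and the rest did not reach the filter. CD59, the surface inhibitor of complement, was the most abundant of them, with 3841 counts in S1650b, 2481 in CB and 2991 in control, and was called in neither comparison with control. LYNX1, a GPI-anchored modulator of nicotinic receptors and a close neighbour of LYPD2 and LY6D, had 15, 34 and 66 counts in the same order. It was 5.00-fold lower in S1650b than in control (2.82 to 9.43), and its fold in CB, 1.98-fold lower (1.29 to 3.09), missed the rule. Exons of the readthrough gene LYNX1-SLURP2 overlap 7.83% of it. PINLYP, which lies between LYPD3 and PLAUR, was 3.79-fold lower in S1650b (1.95 to 7.93) and 2.15-fold lower in CB (1.22 to 3.93) than in control, on 12, 19 and 40 counts. LYPD6B (2.37-fold, on 11 counts against 23) and LY6G5C (2.02-fold, on 27 against 48) were also lower in S1650b than in control. With the trends removed LYPD6B was 2.46-fold lower, and LY6G5C was 1.58-fold lower and no longer called. LYPD8, a protein of colonic epithelium that holds off flagellated bacteria, was the one family gene called higher in S1650b, at 4.76-fold (1.81 to 15.8), on 27 counts against 5. LYPD1 and LYPD6 were called in neither comparison: LYPD1 had 433 counts in S1650b, 443 in CB and 418 in control, and LYPD6 had 211, 126 and 204. Exons of GPR39 overlap 48.9% of LYPD1, so reads of that pair may be mixed. In all, 4 of the 8 tested family genes were lower and 1 higher in S1650b, and 1 was lower and 0 higher in CB. The 4 include LY6G5C, whose call is lost with the trends removed. Of all tested genes, 7.86% were lower and 12.1% higher in S1650b, and 5.6% lower and 1.69% higher in CB. SLURP1, a secreted member made by differentiating keratinocytes, had 1 count in each particle library and 6 in control.

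The remaining 5 members follow each other on chromosome 8 of GRCh38: PSCA (142670308 to 142682724), LY6K (142700111 to 142705127), LYPD2 (142750150 to 142752534), LY6D (142784880 to 142786592) and LY6E (143017982 to 143023832). Within 100 kb of them, 5 other genes were tested. In S1650b 4 of them were called lower than in control and 0 higher, with a median log2 fold of -1.25 (-0.95 with the trends removed), where 7.86% of all tested genes were lower. The 4 were THEM6 (855 counts against 1921), LYNX1, LNCOC1 and LY6E-DT, a divergent transcript of LY6E (51 against 105). With the trends removed THEM6 was 1.85-fold and LY6E-DT 1.81-fold lower, so both fall under the rule, while LYNX1 was 4.25-fold and LNCOC1 2.77-fold lower. JRK, the remaining one, had a log2 fold of -0.71. Exons of LNCOC1, LY6E-DT and JRK overlap those of LY6K, LY6E and PSCA, so these are not separate from the members and reads may be mixed. LYNX1 here and PINLYP on chromosome 19 are also among the other family genes counted above. In CB 0 of the 5 were called, with a median of -0.33. Around the chromosome 19 members, 13 other genes were tested, of which 3 were lower and 1 higher in S1650b, with a median of -0.25. The lower ones were KCNN4, a potassium channel gene near PLAUR and LYPD5 (102 counts against 313), PINLYP and ZNF575, and the higher one was ZNF45. With the trends removed ZNF575 was 1.69-fold lower and ZNF45 1.98-fold higher, both under the rule. In CB 1 of the 13, PINLYP, was lower. Of all tested genes 12.1% were higher in S1650b than in control, and 5.6% were lower in CB.

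**Figure D4:**
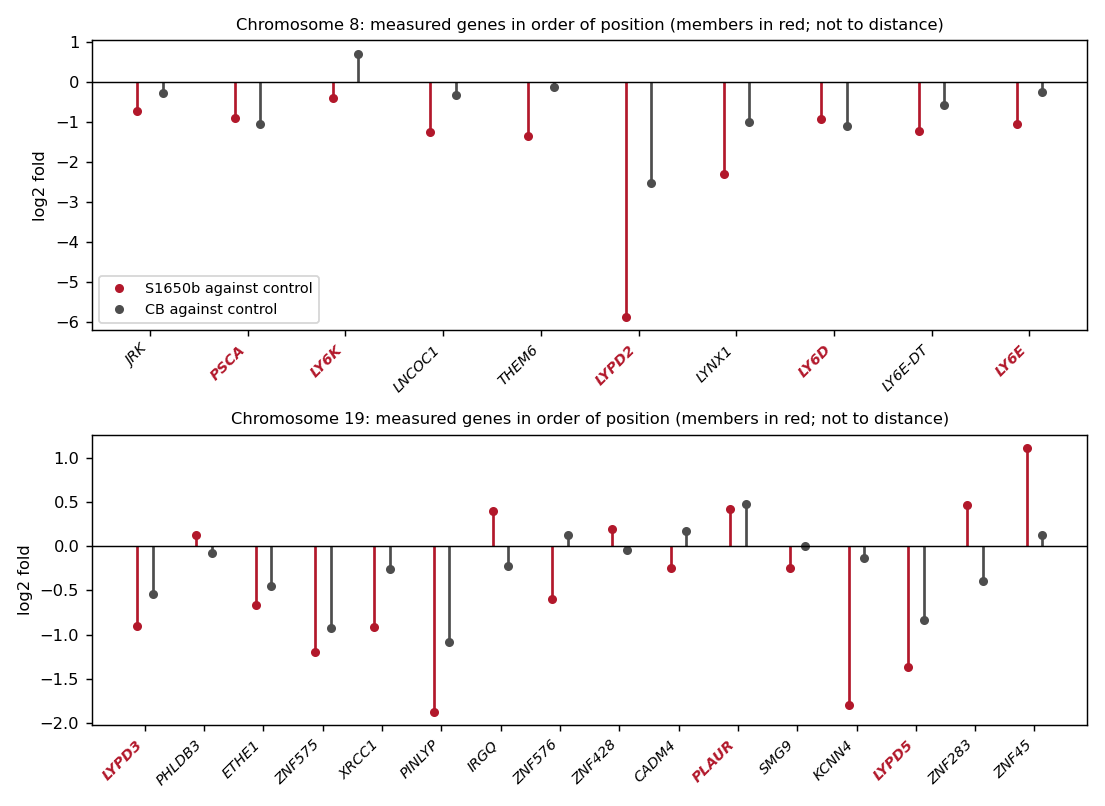
The log2 fold (0.5 counts added) of S1650b and of CB against control for each tested gene in order of position around the members on chromosomes 8 and 19, not to distance. On chromosome 8 every tested gene lies below 0 in S1650b, with LYPD2 at -5.86, and LY6K is above 0 in CB; on chromosome 19 genes lie on both sides of 0.

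Partners of the members went in both directions. AGR2, a ligand of LYPD3, had 39 counts in S1650b, 65 in CB and 311 in control. It was 9.06-fold lower in S1650b (6.48 to 13.0) and 4.89-fold lower in CB (3.73 to 6.49) than in control, while AGR3 had 0, 0 and 2 counts. Of the laminin chains on the list, LAMA3 was 3.13-fold higher in S1650b than in control (2.996 to 3.27). LAMB3 had a fold of 1.15 in S1650b against control, under the rule. In CB neither was called, with folds of 1.10 for LAMA3 and 0.735 for LAMB3.

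In the plasminogen system around PLAUR, PLAU had 5619 counts in S1650b, 3189 in CB and 4261 in control, with folds of 1.16 in S1650b and 0.732 in CB against control, both under the rule. Exons of C10orf55 overlap 31.1% of PLAU. SERPINB2, an inhibitor of urokinase, was 2.99-fold lower in S1650b than in control (2.69 to 3.32) and had a fold of 1.08 in CB. PLAT, the tissue plasminogen activator, was 2.83-fold lower in S1650b than in control. ITGAV, an integrin chain of vitronectin receptors, was 3.503-fold higher in S1650b than in control, or 2.03-fold with the trends removed. Of 18 tested genes in this list, 2 were lower and 4 higher in S1650b than in control, with a median log2 fold of 0.06. In CB 0 were lower and 2 higher, with a median of 0.08. The shares of all tested genes were 7.86% lower and 12.1% higher in S1650b, and 5.6% and 1.69% in CB.

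Several members are linked to suprabasal keratinocytes, and of 10 tested suprabasal genes 4 were lower and 0 higher in S1650b than in control, and 3 were lower and 0 higher in CB. Over all tested genes 7.86% were lower in S1650b and 5.6% in CB. Their median log2 folds were -0.59 in S1650b and -0.75 in CB, or -0.25 and -0.65 with the trends removed. KRT1, a keratin of differentiating cells, had 5 counts in S1650b, 5 in CB and 77 in control, and IVL, involucrin, had 306, 290 and 1213. For KRT1 and IVL the particle libraries lay close together, while LYPD2 had 4 counts in S1650b and 41 in CB. TGM1 and GRHL3 had the order of LYPD2, lowest in S1650b and highest in control. TGM1 had 117 counts in S1650b, 216 in CB and 529 in control, and GRHL3 had 76, 109 and 211. Of the list's other tested genes, GRHL1 had a fold of 1.73 in S1650b against control and FLG, filaggrin, one of 1.23, and KRT10 had one of 0.812, all under the rule. TGM1, which crosslinks the cell envelope, was 5.13-fold lower in S1650b and 2.503-fold lower in CB than in control.

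**Figure D5:**
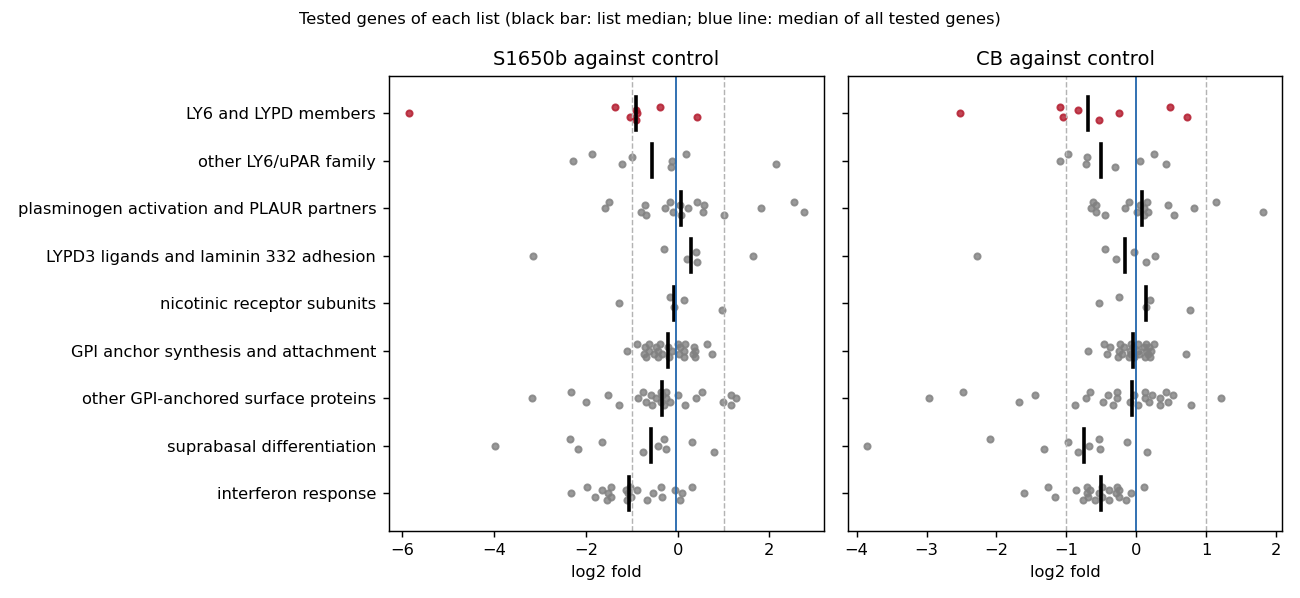
The log2 fold (0.5 counts added) of S1650b and of CB against control for the tested genes of each list; red points are the 8 members, black bars list medians, the blue line the median of all tested genes and dashed lines a fold of 2. The members' medians are -0.91 in S1650b and -0.69 in CB, and the interferon list has its median at -1.06 in S1650b.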

How the data were processed

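RNA from HaCaT cells was extracted with Trizol and made into libraries with a NEBNext Ultra kit, per the labels' protocols. The authors deposited whole-number counts per Ensembl gene and a table of FPKM, with 1 column per library. CASAVA 1.7 and the mouse builds mm8 and mm9 are named in the submitters' processing notes, and these builds conflict with the human identifiers. An aligner, a counter and a strand setting are not given in the sources used. Symbols matched 58207 of 58735 identifiers, and positions (GRCh38), exonic lengths and GC content of the longest transcript came from GENCODE 29.

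TMM factors (edgeR 4.0.16, R 4.3.3) were 1.09 in S1650b, 0.960 in CB and 0.952 in control. Tested were 14709 genes that reached 1 CPM, before TMM adjustment, in 1 library or more. Folds have exact conditional binomial (Clopper-Pearson) 95% intervals, levels have Poisson intervals, and log2 values have 0.5 counts added. With 1 library per group no test across samples was made. The fold rule was run on simulated counts with Poisson error only. Those counts held no variation between cultures and no GC or length trend, so the run cannot show how often such single libraries give false calls. Trends were removed by lowess (span 30%, statsmodels 0.14.6).

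The members, the 14 gene lists and the rules were chosen with earlier results of these data known. The rule named all members, the tested genes of the family, up to 4 called genes of each other list and a few partners, the tested neighbours within 100 kb and the 5 genes nearest to LYPD2; the text describes a part of these, and some list genes are not reported here. AGR3, TEX101, SLURP1, GRHL1, FLG, KRT10 and single fibroblast and keratinocyte markers were named after their values were seen. Alternatives were 3 other scalings (DESeq2 1.42.0 for median of ratios), the deposited FPKM, other filters, 5 counts added, folds of 1.5 and 3, removal of trends, and protein-coding genes.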

Additional observations from a re-analysis of the deposited data

How the results depend on the processing

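No paired analysis was possible because each group holds 1 library, and for the same reason no replicate was left out. LYPD2 stayed lower under every alternative run, at 28.8-fold to 68.1-fold in S1650b and 5.11-fold to 5.94-fold in CB against control, and 5.49-fold to 11.9-fold in S1650b against CB. LY6E lost its S1650b call with total counts (1.79-fold), upper quartile (1.97-fold), a filter of 5 CPM (1.99-fold) and removal of length (1.79-fold), GC (1.60-fold) or both (1.46-fold). Of the member folds that an alternative altered at all, 232 stayed within the counting interval and 29 moved out of it. The causes were not tested.

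In S1650b against control, a fold of 1.5 gave 6 members lower, 2855 genes lower and 3236 higher, and a fold of 3 gave 1, 462 and 490. At 5 CPM 696 genes were lower; 1073 were higher with the GC trend removed and 959 with both trends removed. In CB against control, a fold of 1.5 gave 1 member higher, 1568 genes lower and 691 higher, and a fold of 3 gave 1 member lower, 315 genes lower and 87 higher. Deposited FPKM gave 1 member and 528 genes lower, and removal of both trends 1 member lower. Without a filter 468 genes were higher, at 5 CPM 317 were lower and 67 higher, and among protein-coding genes 137 were higher. In S1650b against CB, a fold of 1.5 gave 3024 genes lower and 3870 higher, and a fold of 3 gave 1 member lower, 452 genes lower and 930 higher. Total counts, removal of the GC trend and removal of both trends each gave 1 member lower, and at 5 CPM 866 genes were lower. Total-count scaling raised the median log2 fold of all genes by 0.20 in S1650b against control and 0.19 against CB. PSCA had no value at 5 CPM, since it lay under that filter. LYPD2 in S1650b and PSCA in all libraries rest on few counts, so depth limits their folds most.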

Other observations

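Most members need a GPI anchor to reach the cell surface. Of 28 tested genes for making and attaching that anchor, 1 was lower and 0 higher in S1650b than in control, with a median log2 fold of -0.21. In CB 0 were called, with a median of -0.04. The shares of all tested genes were 7.86% lower and 12.1% higher in S1650b, and 5.6% and 1.69% in CB. The called gene was PIGU, a subunit of the transamidase that attaches the anchor, with 538 counts in S1650b, 1181 in CB and 1025 in control. It was 2.16-fold lower in S1650b than in control, or 1.83-fold with the length and GC trends removed, where the call is lost.

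Of 26 other tested genes for GPI-anchored proteins, 5 were lower and 3 higher in S1650b than in control, and 4 were lower and 1 higher in CB. The shares of all tested genes were 7.86% lower and 12.1% higher in S1650b, and 5.6% and 1.69% in CB. ALPP, placental alkaline phosphatase, had 4635 counts in S1650b, 3163 in CB and 9876 in control. Its S1650b fold, 2.42-fold lower than control, was 1.75-fold lower with the trends removed, where the call is lost. ALPG, a near-identical copy of ALPP whose counts are uncertain, had 99, 103 and 788. BST2, the antiviral protein tetherin, was 2.88-fold lower in S1650b than in control (2.37 to 3.52) and had a fold of 0.633 in CB. SEMA7A, a GPI-anchored semaphorin, was higher with both particles, with 208 counts in S1650b, 192 in CB and 81 in control.

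Nicotinic acetylcholine receptors are targets of several LY6 proteins, and 5 of 16 subunit genes were tested. CHRNA7 was the one called, 2.42-fold lower in S1650b than in control (1.88 to 3.15), or 4.10-fold with the length and GC trends removed, with 90 counts in S1650b, 136 in CB and 192 in control. Part of CHRNA7 is duplicated in the genome, so its counts are uncertain. Of all tested genes 7.86% were called lower in S1650b than in control.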
